A study of Homo sapiens with 24 samples.

Results

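The m6A landscape of undifferentiated human pluripotent stem cells (hPSCs) was described from the peak list of the hPSC population alone. All 36659 peaks of that list were members, out of 228472 peaks in the 6 lists of the series, and every one was kept. The hPSCs were MEL1 cells, an established human embryonic stem cell line, grown on CF1 feeder cells with bFGF. By the study's methods the line is MEL1 INS GFP/W, in which green fluorescent protein is driven from an allele of the insulin gene, and all populations compared here come from it. Poly(A)-enriched mRNA was broken into short fragments and precipitated with an m6A antibody (SYSY), which gave 2 m6A (IP) libraries, and 2 input libraries were made without antibody. The populations used for comparison were made from the same line in the same batch with the same antibody. They were definitive endoderm (DE, 32680 peaks), pancreatic progenitors (PP, 29083 peaks) and islet-like organoids (hILO, 31519 peaks), with 2 IP and 2 input libraries each. The other lists of the series came from wild-type and ALKBH5-knockout progenitors in a second batch. By the study's methods, total RNA was precipitated directly there and another library kit was used. Those lists entered the total of 228472 peaks and the counts of genes with a peak in any of the 6 lists. Each list pools the libraries of a population and holds no value per library. No spread between replicates could therefore be given and no test between samples could be made. Intervals below cover counting error only.

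m6A is a methyl group on the N6 position of adenosine and is the most common internal mark of eukaryotic mRNA. It is written in the nucleus by a complex around METTL3 and METTL14, at part of the adenosines within a family of 18 words of 5 bases known as DRACH, removed by ALKBH5 and FTO, and bound by readers such as the YTH proteins. In stem cells the mark is known for shortening the life of transcripts that have to be cleared when a cell changes its fate.

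A peak marks a stretch of a transcript with more IP than input fragments, and its position and its read counts were first checked against each other. The rows of the list were numbered close to the order of Ensembl gene identifiers (94.5% of neighbouring rows did not go down). A longer peak collects more input reads, and in windows of 500 peaks the input count followed the exonic length of its own peak in peaks 8500 to 20499, with Spearman's rho between 0.40 and 0.54 in all 24 windows. In the other 49 windows the median rho was 0.022, and the own peak gave the highest rho in only 5. There the input counts followed the length of a peak further down the list, by 8 rows in peaks 4000 to 7499, by 1 row in peaks 21500 to 24999, by 2 rows in peaks 26000 to 30999 and by 7 rows in peaks 34500 to 35999. The 15 peaks of mitochondrially encoded genes that could be followed in this way had a median of 69 input reads in their own rows and of 6319 in the rows 2 places before. Of those 15 rows, all but a row of MT-ND1 and a row of MT-ND5 were assigned to other genes. MT-ATP6, a subunit of ATP synthase, had 118 input reads at a 264-nt peak, while the row 2 places above, assigned to SHISA4, held 27999. The peaks of 8500 to 20499 are called peaks with matched counts from here on. They numbered 11994 (32.7% of peaks, on 4333 genes, with 33.6% of all IP reads in the list).

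Other readings gave the same division. At peaks shared with DE, the input counts of both populations had a rho of 0.774 where both lists held matched counts (3775 pairs of peaks) and of 0.268 where neither did (7831 pairs). For PP the values were 0.821 (882 pairs) and 0.174 (5615 pairs), and for hILO 0.697 (797 pairs) and 0.0788 (6618 pairs). Input reads per nt of neighbouring peaks of a gene had a rho of 0.589 (7618 pairs) among matched counts and of 0.202 (14483 pairs) elsewhere. Peak positions were therefore used for the whole list, and read counts, log2 enrichment and ratios of IP to input only where the counts matched. A p-value below 1e-05 stood in the rows of 62.4% of the peaks, and the other peaks were kept as deposited.

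**Figure D1:**
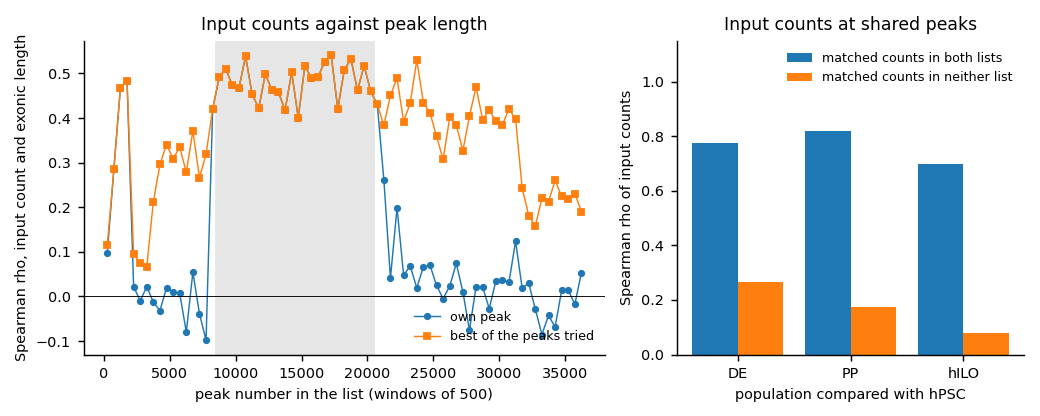
Left, Spearman's rho between the input count and the exonic length of the own peak (blue) and of the best of the neighbouring peaks tried (orange) in windows of 500 peaks in order of peak number; the grey area spans peaks 8500 to 20499, where both coincided between 0.40 and 0.54. Right, Spearman's rho of the input counts of hPSC and of another population at shared peaks, where both lists held matched counts (blue, 0.697 to 0.821) and where neither did (orange, 0.0788 to 0.268).

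The sequences below show what the antibody recovered in transcripts that define the pluripotent state and in the most enriched peaks. Each is 25 nt of the GRCh38 reference on the transcript strand, 5′ to 3′, from a peak that spans no intron, and the capitals mark the DRACH word nearest the peak's middle, with GGAC words taken first.
PODXL, chr7:131504034-131504058, minus strand, 3′ UTR: gccacgtaagGGACTttatagatga
DPPA4, chr3:109333528-109333552, minus strand: tcttgaaaccGGACTtcctattcta
USP44, chr12:95533180-95533204, minus strand, coding sequence: tctgtcatcaGGACTaagtggtgga
LIN28A, chr1:26428511-26428535, plus strand, 3′ UTR: tcctaagtcaAGACCattaccattt
EXOC8, chr1:231336126-231336150, minus strand, coding sequence: gggtgatatcGGACTggatctcacc
ARTN, chr1:43936921-43936945, plus strand, 3′ UTR: acaggtgaagGGACAactgactagc
MDM2, chr12:68842243-68842267, plus strand, 3′ UTR: tcaagaaaaaGGACTacggaaagtt
NSRP1, chr17:30185091-30185115, plus strand, coding sequence: caagggcgagGGACCaaagagaaag
LIN28A was the only gene shown whose peak held no GGAC word with room for the flanks. A word in a peak is a description and not a mapped m6A site, since the peaks are far wider than a word.

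Over all peaks, the 18 DRACH words occurred at 22.3 sites per kb in peaks and at 18.1 per kb in the exonic sequence of the same genes outside peaks, a ratio of 1.23 (95% interval 1.22 to 1.24). The 3 words that begin with GGAC had a ratio of 1.65 (1.63 to 1.67), and on the opposite strand the same words had a ratio of 1.00 (0.99 to 1.02). GGACT ranked first at 1.75 and GGACA second at 1.66. The 3 words that begin with TAAC lay below 1, from 0.75 to 0.85. On the opposite strand the 18 words had ratios between 0.63 and 1.06.

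Of the 36659 peaks, 306 (0.83%) had no exonic overlap with a gene of their deposited identifier in GENCODE 44 and were left out of gene counts. The other peaks lay on 14204 genes. Protein-coding genes held 31519 peaks (86.0%), long noncoding RNAs held 3647 (9.95%), and the remaining 1187 lay on pseudogenes and other classes. A peak covered a median of 175 nt of exon, with a middle range from 100 to 275 nt. At least 1 peak was found on 11271 of 20046 protein-coding genes (56.2%), and 1821 of these 11271 genes (16.2%) had 5 or more. Those 1821 genes held 38.4% of the peaks of protein-coding genes. The list holds no reads outside peaks, so a gene without a peak cannot be placed as unexpressed or as expressed and unmethylated.

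The genes with most peaks had long transcripts. DST, a large linker of intermediate filaments, had 30 peaks over 48.1 kb of exon, and MACF1, which links actin and microtubules, had 22. KMT2D, KMT2A and SPEN, which are large chromatin and transcription regulators, had 22, 20 and 19. AHNAK and PLEC, a scaffold and a cytolinker, had 20 and 19, the proteoglycan VCAN had 20 and the centrosomal ALMS1 had 18. The number of peaks grew more slowly than the transcript. In the fifth of peak-bearing genes with the least exonic sequence (up to 3.16 kb) the median was 1 peak and 0.74 peaks per kb, and in the fifth with the most (9.37 kb and above) it was 3 peaks and 0.25 per kb. The Spearman correlation over the 11271 genes was 0.34, which is a description across genes.

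Per kb of exon the leading genes were short. TNFSF13, a cytokine of the tumor necrosis factor family, had 8 peaks in 2.28 kb (3.51 per kb). The summed exonic length of these peaks exceeded that of the gene, so they overlap and are not 8 separate sites. CDC42EP1, an effector of the small GTPase CDC42, had 7 in 2.54 kb (2.76 per kb). FAM32A had 5 in 1.92 kb (2.60 per kb) and the transcription factor ATF5 had 7 in 2.89 kb (2.42 per kb). ZNF816 reached 2.42 per kb with 8 peaks. The median of the 11271 genes was 0.42 per kb, and their middle range ran from 0.24 to 0.71.

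Most peaks lay in coding sequence. The middle of 26866 peaks fell on the longest coding isoform of their gene, and of these peaks 14131 (52.6%) lay in coding sequence, 10833 (40.3%) in the 3′ UTR and 1902 (7.08%) in the 5′ UTR. The 200 nt before the stop codon held 7.92% and the 200 nt after it 12.7%. The 100 nt with most peaks followed the stop codon directly. It held 1783 peaks, against 646 to 782 peaks per 100 nt between 700 and 200 nt upstream and 236 at 900 to 1000 nt downstream. These counts are not divided by the number of isoforms with sequence at that distance. Long internal exons stood out when peaks were set against exon length. Internal exons over 400 nt held 13.0 peaks per 10 kb, internal exons of up to 140 nt held 2.86 and those between held 3.24, and they took 16.7% of peaks with 6.88% of the sequence. Last exons, at 5.29 per 10 kb, lay close to the density of all exons of these genes (5.35).

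The strength of enrichment could be read for called peaks only, and the lowest log2 enrichment in the list was 0.59. Over the 11994 peaks with matched counts the median log2 enrichment given by the authors was 1.70 (interval of the median 1.69 to 1.71), with the middle range from 1.41 to 2.09, and 3540 of them (29.5%) reached 2. Peaks in the 3′ UTR had a median of 1.78 (1.75 to 1.80, 4008 peaks), those in coding sequence 1.70 (1.68 to 1.72, 5266 peaks) and those in the 5′ UTR 1.51 (1.48 to 1.55, 741 peaks). The last 200 nt before the stop codon had a median of 1.86 (1.81 to 1.92). Within coding sequence, internal exons over 400 nt had 1.78 (1.76 to 1.81) and shorter ones 1.48. These intervals treat peaks as separate values, although peaks of a gene share their transcript, and longer exons held longer peaks (median 225 nt against 150 nt).

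The population label was checked against marker genes, beside a share of 56.2% of all protein-coding genes with a peak. Of 9 pluripotency markers, 8 carried a peak, namely POU5F1, NANOG, SALL4, LIN28A, ZFP42, DPPA4, UTF1 and PODXL. SOX2 carried none. Peaks were found on 3 of 10 endoderm markers (CXCR4, CER1 and MIXL1), 2 of 6 pancreatic markers (SOX9 and ONECUT1), 1 of 5 islet markers (CHGA), 1 of 4 neuroectoderm markers (NES) and 0 of 4 mesoderm markers. Of 6 fibroblast markers, 3 carried a peak (COL1A1, COL1A2 and THY1), and COL3A1, DCN and LUM carried none. THY1 had 5 peaks, and is also known as a surface marker of pluripotent cells. Its input counts, all matched, were 134, 2029, 3489, 108 and 95. The feeder cells were mouse cells, and their part in these values was not tested.

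Pluripotency factors were among the groups with most peaks. Of 30 listed genes 28 (93.3%, Wilson interval 78.7% to 98.2%) carried a peak, beside 56.2% of all protein-coding genes. When only genes with a peak in any of the 6 lists were counted, it was 28 of 28, beside 71.4%. Here and below that set includes the hPSC list itself, so it is no independent check. SOX2 and DPPA2, the listed genes without an hPSC peak, were assigned no peak in any list and dropped out of it. The 28 genes held 108 peaks with a median of 4, and 11 of them had 5 or more, beside 16.2% of peak-bearing genes. SALL2, a zinc finger factor, had 10 peaks in 5.38 kb and RIF1, a regulator of replication timing and telomeres, had 9. SALL4 and PODXL, the latter a surface sialomucin of pluripotent cells, had 7 each, and DPPA4, FOXD3, JARID2, L1TD1, TERF1, USP44 and VRTN had 5 each. NANOG had 3, and POU5F1, the core factor OCT4, had 1 short peak in its 3′ UTR. Per kb, FOXD3 (1.95), SOX3 (1.92), SALL2 (1.86) and PRDM14 (1.69) were densest, and the median of the list was 0.81 beside 0.42 for all peak-bearing genes. The naive pluripotency genes gave 9 of 16 with a peak (56.2%), the same share as all protein-coding genes, and DPPA3, DPPA5, ESRRB and KLF17 carried none.

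Read counts could be read for 12 pluripotency factors. PODXL had 7 peaks with input counts of 3481, 3352, 2880, 9954, 1204, 8786 and 1607 in order of position, and IP counts of 24084, 25359, 18020, 121891, 9502, 109994 and 12099. The 2 peaks with most reads also had the highest log2 enrichment, 2.05 in the 3′ UTR and 2.08 in the coding sequence across an intron, and the other 5 lay between 1.18 and 1.55. The 5 peaks of DPPA4, a chromatin protein of early development, had input counts of 3669, 1215, 295, 1388 and 90 and log2 enrichments of 2.02, 1.38, 2.22, 1.65 and 1.44. The strongest peak of DPPA4 was thus one of those with fewest input reads. LIN28A, which binds let-7 precursors, had a single peak with 2145 input and 14548 IP reads and a log2 enrichment of 1.41. TERF1, a telomere protein, had 5 peaks between 1.17 and 2.52, of which the strongest crossed several exons and held 48180 of 69583 IP reads. The 5 peaks of VRTN all lay between 1.37 and 1.66 with 993 to 1591 input reads.

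The pluripotency factors therefore joined many peaks and high counts to modest enrichment. Of their 45 peaks with matched counts 7 (15.6%) reached a log2 enrichment of 2, beside 29.5% of all such peaks, and the median was 1.49 beside 1.70. Summed over the peaks of a gene, with a pseudocount of 1 and at least 200 input reads, the log2 ratio of IP to input was set relative to the median of the 2407 genes measured. Of 11 pluripotency factors 4 lay above that median, led by TERF1 at 0.17 and USP44 at 0.11, and 7 lay below it, with LIN28A at -0.52 (counting SE 0.033), TCF7L1 at -0.50 and FOXH1 at -0.41. The median of the list was -0.24. Without peaks that cross an intron 1 of 11 lay above the median gene and the list median was -0.30. Their share of IP reads was 2.24% with 0.38% of the peaks, and PODXL had most of it.

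**Figure D2:**
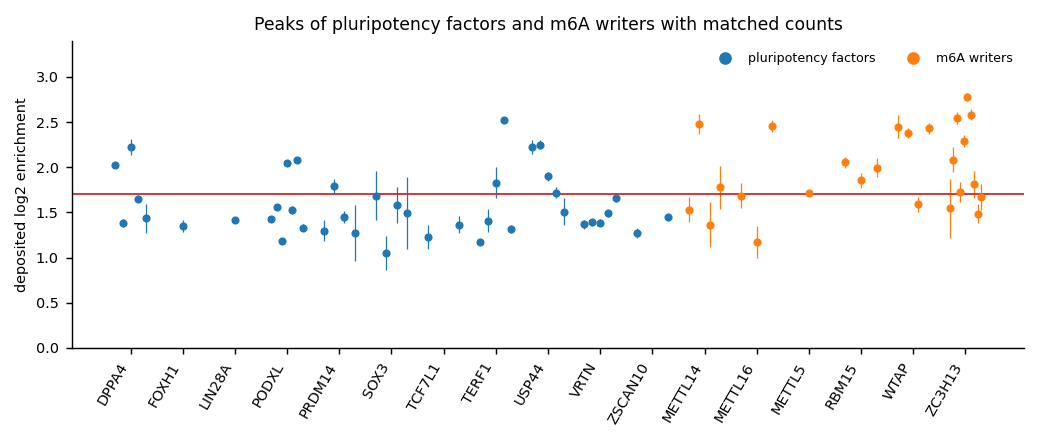
Deposited log2 enrichment of peaks with matched counts on 11 pluripotency factors (blue) and 6 m6A writers (orange), in order of position within a gene, with counting SE; the red line is the median of all such peaks, 1.70. A log2 enrichment of 2 is reached by 7 blue and 11 orange points.

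The m6A machinery carried peaks in nearly every gene. All 12 writer genes and all 15 reader genes had a peak, beside 56.2% of all protein-coding genes and 71.4% of those with a peak in any list, and of the 2 erasers ALKBH5 had 3 peaks and FTO none. ZC3H13, which holds the writer complex in the nucleus, had 10 peaks, VIRMA, its scaffold, had 6, and METTL3, METTL14, WTAP and RBM15B had 4 each. For ZC3H13 the 10 input counts ran from 21 to 1132 and the log2 enrichments from 1.49 to 2.77. WTAP had input counts of 144, 860, 333 and 597 and log2 enrichments of 2.45, 2.38, 1.59 and 2.43, so that all but the third lay well above the median peak. METTL14 reached 2.48 at a 650-nt peak in its 3′ UTR and 1.37 to 1.78 at its other 3 peaks. Of the 6 writers measured by gene, 5 lay above the median gene, ZC3H13 at 0.54 (counting SE 0.025), METTL16 at 0.52, WTAP at 0.42, RBM15 at 0.26 and METTL14 at 0.17, and METTL5, which methylates ribosomal RNA, lay at -0.18. Among writer peaks 11 of 25 reached a log2 enrichment of 2, beside 29.5% of all matched peaks. Of the readers, YTHDC1 had 7 peaks, YTHDF1, YTHDF2 and PRRC2A 5 each and HNRNPA2B1 9. The 6 readers measured lay between -0.47 for IGF2BP1 and 0.07 for RBMX, below the writers except METTL5.

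Several lists of chromatin regulators had many peaks per gene, beside a median of 2 over all peak-bearing protein-coding genes. Histone lysine methyltransferases had peaks on 24 of 27 genes (88.9%, beside 56.2% of all protein-coding genes) with a median of 6.5. Of the 24, 16 (66.7%) had 5 or more, beside 16.2% of all peak-bearing protein-coding genes. KMT2D, KMT2A, KMT2C and ASH1L led with 22, 20, 18 and 14, and 86.6% of the placed peaks of this list lay in coding sequence, beside 52.6% of all. Their median exonic length was 12.6 kb, and per kb the list had 0.57. BAF and CHD remodelers had peaks on 33 of 36 with a median of 5, but 0.37 per kb. Histone lysine demethylases had peaks on 21 of 22, Polycomb genes on 30 of 36 and DNA methylation genes on 16 of 18, with medians of 4, 3 and 3.5 peaks. Among the last, TET1, which oxidizes methylcytosine, had 12 peaks (1.25 per kb), while the list had a median of 0.34 per kb and the demethylases 0.41, beside 0.42 for all peak-bearing genes. DNMT3B, a de novo DNA methyltransferase of pluripotent cells, had none.

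Zinc finger genes were the longest list with peaks on most members. Of 508 genes named ZNF, 403 (79.3%) carried 1684 peaks with a median of 4, 0.72 per kb, and 147 (36.5%) had 5 or more. The shares over all protein-coding genes were 56.2% with a peak and 16.2% of carriers with 5 or more. Among genes with a peak in any list the ZNF share was 87.2%, beside 71.4%. ZNF292 and ZNF814 led with 14 each. Of their 405 peaks with matched counts 175 (43.2%) reached a log2 enrichment of 2, beside 29.5% of all. The 62 genes with enough reads had a median of 0.20 above all genes, with 43 above and 19 below, and ZNF639 was highest at 0.98. Their input was low, with a median of 21.8 reads per 100 nt of peak, beside 47.0 for all protein-coding genes with matched counts. Many family members share sequence, and reads that fit several members could not be told apart here.

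Ribosomal protein, translation, proteasome and DNA replication genes had low gene ratios, with a median of 1 or 2 peaks per gene beside 2 for all peak-bearing protein-coding genes. Of 4 glycolysis genes 3 lay above the median gene (list median 0.03), and without peaks that cross an intron 1 of 3 did (list median -0.025). Cytoplasmic ribosomal protein genes carried a peak in 44 of 85 cases (51.8%, beside 56.2% of all protein-coding genes), with a median of 1 peak, and 70.0% of their placed peaks lay in the 3′ UTR of the longest coding isoform. Of the 15 measured, 13 lay below the median gene, with a list median of -0.39. RPL36A lay at -0.62, and RPS24, with 9 peaks and 181701 IP reads, was above at 0.10, while 0 of 13 lay above without peaks that cross an intron. Single peaks did not stand apart, since 14 of 48 (29.2%) reached a log2 enrichment of 2, beside 29.5% of all. Mitochondrial ribosomal proteins had peaks on 66 of 78, median 1, and a median ratio of -0.31 over 22 genes. Translation factors lay at -0.30 over 11, proteasome genes at -0.36 over 5 and DNA replication genes at -0.34 over 6. The input of these lists was high, beside a median of 47.0 reads per 100 nt of peak for all protein-coding genes with matched counts. The median was 339 for proteasome genes, 212.7 for cytoplasmic ribosomal proteins and 206.8 for translation factors. For mitochondrial ribosomal proteins it was 157.5 and for DNA replication genes 122.75. Whether the low ratios go with the high input was not tested. Replication-dependent histones, whose mRNAs lack a poly(A) tail, had peaks on 15 of 69 (21.7%), or 46.9% of those with a peak in any list, beside 56.2% and 71.4% of all protein-coding genes. Genes of other lineages were mostly without peaks, with 2 of 39 HOX genes, 7 of 400 olfactory receptors, 2 of 11 mesoderm genes and 1 of 11 neuroectoderm genes.

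Most signaling genes carried peaks. Nodal, TGF-beta and BMP genes carried a peak in 40 of 49 cases, FGF and RAS-MAPK genes in 36 of 45, Hippo genes in 26 of 28 and Wnt genes in 38 of 51, beside 56.2% of all protein-coding genes. Among genes with a peak in any list the Wnt share was 77.6%, beside 71.4%. NODAL, the ligand that maintains pluripotency, had 2 peaks with 725 input and 10513 IP reads and lay at 0.58, and BMP4 lay at 0.73. The antagonists LEFTY1 and LEFTY2 lay at 0.12 and -0.50, and as close paralogs they share sequence, so that each value is uncertain. GDF11 had 15 peaks and lay at 0.35. The median was 0.32 over 14 Nodal, TGF-beta and BMP genes, of which 10 lay above 0, and 0.31 over 9 FGF and RAS-MAPK genes, of which 8 did. It was 0.08 over 9 Hippo genes and -0.08 over 10 Wnt genes. SPRY2 and DUSP6, feedback inhibitors of the FGF pathway, both lay at 0.40 and FGF2 at 0.26. All 13 measured immediate early genes lay above 0, from NR4A1 at 0.0024 to IER3 at 0.71, and 10 of 13 did so without peaks that cross an intron. MYC and MYCN were at 0.09 and 0.33.

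Of the 25 lists with at least 5 genes measured both ways, 21 kept the sign of their median ratio without peaks that cross an intron. DNA replication genes were then lowest at -0.38, mitochondrial ribosomal proteins lay at -0.35 and cytoplasmic ribosomal proteins at -0.33. Cell cycle genes moved from -0.10 to -0.34.

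Across all lists, 31 of 45 had a larger share of members with a peak than the 56.2% of all protein-coding genes, with the naive pluripotency genes equal to it at the digits given. The number of genes in a list limits the interval, which runs from 75.8% to 100% for the 12 writers and from 75.6% to 82.6% for the ZNF genes. No test over members was made, since the lists were chosen with results of these data known.

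Among single genes the ratio of IP to input had a middle range from -0.26 to 0.25 around the median of 2407 genes, with a median counting SE of 0.065. WDR89 was highest at 1.18 (counting SE 0.083), from 1 peak with 318 input and 7016 IP reads. VGF, a secreted neuropeptide precursor, lay at 1.13, GADD45G, a stress-induced growth regulator, at 1.11 and the splicing factor PRPF38B at 1.03 with 26140 IP reads. The lowest were MAPKAP1, a subunit of mTORC2, at -0.92, LDHA, the glycolytic lactate dehydrogenase, at -0.90 with 2235 input reads, and DBI, a carrier of acyl-CoA, at -0.80. Several of the lowest genes had a single peak of 50 to 150 nt. The strongest single peaks with at least 50 input reads lay on FBXL18 (log2 enrichment 3.91), EXOC8 of the exocyst (3.38), ARTN, a ligand of the GDNF family (3.24), MDM2, the ubiquitin ligase of p53 (3.24), and NSRP1, a splicing regulator (3.21). FBXL18 rested on 65 input reads in a peak that crossed an intron, and the other 4 on 86 to 321.

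Reads were concentrated on few genes. Of 4333 genes with matched counts the top 1% (43 genes) held 19.7% of IP reads and 19.8% of input reads, and 331 genes (7.64%) held 50% of IP reads, counted from the highest. NCL, the nucleolar protein nucleolin, led with 469750 IP reads in 3 peaks, followed by PODXL (320949), IL6ST, the shared receptor of the IL-6 family (275213), CACNA2D3, a calcium channel subunit (262562), and GJA1, the gap junction protein connexin 43 (212310). Nearly all peaks that cross an intron are written as 1 block in the list, as are 36653 of all 36659 peaks. They made up 21.5% of gene-assigned peaks with matched counts and held 34.0% of the IP reads, with a median of 59.2 input reads per 100 nt of exon, against 39.1 in the other peaks. Of the 10 peaks with most IP reads 7 crossed an intron, and 4 had another annotated gene inside their span.

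The CACNA2D3 value came from 1 peak on the plus strand, chr3:54627795-54642220, with 39107 input reads over 175 nt of exon. ESRG, a long noncoding RNA of human pluripotent cells, lies inside that span on the minus strand and had 3 peaks of its own in the list, in rows without matched counts. The snoRNA gene SNORD82 lies inside the leading peak of NCL, and the 533809-nt span on SUMF1 held 4 other genes. Whether the counts include reads from inside introns was not tested. Without peaks that cross an intron, GJA1 (212310) and PODXL (210955) led, followed by NCL (143086), TARDBP, an RNA-binding protein (116272), the lactate transporter SLC16A1 (106745) and HNRNPU (103412), and 4 of the 10 leading genes were shared with the ranking over all peaks. GJA1 had 34.7% of its reads in peaks with a near-identical copy in another gene. For the ratios of IP to input, 8 of the 10 highest genes were shared and 5 of the 10 lowest. MAPKAP1 and LDHA were no longer among the 10 lowest, where MKRN1 came first at -0.90.

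Genes with peaks in hPSCs mostly had peaks at later stages too. Of the 11271 protein-coding genes, 9577 (85.0%) had a peak in DE. The count was 8632 (76.6%) for PP and 9068 (80.5%) for hILO, and 7459 genes (66.2%) had peaks at every one of these stages. By position, 52.4% of the 36353 assigned hPSC peaks were covered over more than 50% of their exonic length in DE, 40.8% in PP and 49.0% in hILO. Each stage has 1 list of its own depth and length, so these shares have no replicate check. The writers and readers lay close to or above these shares, with 11 of 12 and 15 of 15 genes in PP.

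Pluripotency factors were followed in the same way. Of the 28 peak-bearing genes, 24 had a peak in DE (85.7%, beside 85.0% of all genes), but 14 in PP (50.0%, beside 76.6%) and 13 in hILO (46.4%, beside 80.5%). NANOG, POU5F1, TDGF1, GDF3, ZFP42, ZIC2, OTX2, VRTN and ZSCAN10 were among those with peaks in hPSC and DE and in neither later stage. FOXD3, PRDM14, SOX3 and UTF1 had no peak in DE, PP or hILO. SALL4 had 6, 6 and 5 peaks in DE, PP and hILO beside 7 in hPSC. In poly(A) RNA, loss of the transcript and loss of the mark cannot be told apart in these lists.

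In total 719 protein-coding genes (6.38%) had a peak in hPSC and none in DE, PP or hILO. Of these 66.9% had a single peak, beside 32.5% of all peak-bearing genes, and 100 had 3 or more. The genes with most, named after their values were seen, included SLC24A2, a sodium, calcium and potassium exchanger (9 peaks), and PCDHAC2, PDZD2, PTPRZ1 and SLITRK3 (7 each). SLC24A2 had 98 input and 1557 IP reads over its 9 peaks.

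Long noncoding RNAs held 3647 peaks on 2167 genes. SNHG14, the host of imprinted snoRNAs, had 15 peaks, HCG18 had 14, and FTX, LINC00205 and PSMG3-AS1 had 12 each. TENM3-AS1 had 9 in hPSC, and 1, 1 and 0 in DE, PP and hILO. LINC-ROR, described as a regulator of reprogramming, had 5, MALAT1 and NEAT1 had 4 each, ESRG had 3 and NORAD had a single peak of 1225 nt. Only 64 peaks of long noncoding RNAs had matched counts, with a median log2 enrichment of 1.87 (1.61 to 1.97). Antisense genes overlap coding genes, and the peaks were assigned by strand.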

How the data were processed

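The authors trimmed reads with fastp, aligned them with HISAT2 to GRCh38 and called peaks with exomePeak2. For each peak the deposited list gives pooled input and IP read counts, a log2 fold change of IP over input and a p-value with its adjusted value. The study's methods name a limit of p below 1e-05, which 62.4% of the deposited hPSC p-values met. These are the authors' values, and the list gives none per library.

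Genes and exons were taken from GENCODE 44 on GRCh38. A peak was given to the gene of its deposited identifier with exonic overlap on the same strand, protein-coding genes first. Scripts ran in Python 3.11.15 with pandas 2.3.3, SciPy 1.17.1 and pysam 0.24.0. The exonic length is the part of the peak span on exons of that gene. Counts were taken as matched in the longest run of windows where, in windows of 500 rows and shifts from -10 to 30 rows, a shift of 0 gave the highest Spearman's rho, less 1 window at each end. This choice was made after the data were seen. Peaks with 95% identity over 90% of their length to another gene's transcripts (megablast) made up 6.94%.

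Genes named were members of the lists and the 10 leading genes by peaks, IP reads, input reads, ratio of IP to input (highest and lowest, at least 200 input reads) and peaks per kb (at least 5 peaks), and the 10 strongest peaks with at least 50 input reads. Genes without peaks in later stages, leading long noncoding RNAs, genes inside or leading without intron-crossing peaks, and genes of misplaced rows were named after their values were seen. Some genes under the rule are not reported here. The members and lists were chosen with earlier results of these data known. The alternatives were stricter p-value and ratio limits, merging of near peaks, other read minimums and pseudocounts, other denominators and lengths, and other rules of overlap.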

Additional observations from a re-analysis of the deposited data

How the results depend on the processing

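No paired analysis was possible because the peak list used here sums the reads of a population and holds no value per library. Leaving out a library could not be run for the same reason. Limits on p or enrichment act on displaced values in most rows. The list had 22609 peaks at an IP to input fold of at least 3, 22875 at p below 1e-05, the limit in the study's methods, and 13867 at p below 1e-10, where 8318 genes remained, against 36659 peaks on 14204 genes. At p below 1e-10, 31 of the 45 gene lists had a share of members with a peak that moved beyond its interval, at a fold of at least 3 it was 16, and over genes with a peak in any list 8. The share of all protein-coding genes moves too, and the lists above it numbered 31, 33 and 29 in these settings, against 31. The top 1% of genes held 17.5% of IP reads at p below 1e-10, 20.6% over all peaks as deposited, 22.4% with counts moved back by their displacement and 16.9% without peaks that cross an intron, against 19.7%. The middle range of the gene ratio was 0.53 wide at 50 input reads, 0.54 without peaks that cross an intron and 0.44 from the median enrichment of a gene's peaks, against 0.51. The 3′ UTR lay 0.11 above the coding sequence when any overlap counted and 0.035 over all peaks as deposited, against 0.08. The GGAC ratio was 1.00 on the opposite strand and 1.71 over matched peaks with at least 50 input reads, against 1.65. By covered peaks, the genes found again made up 74.8% (DE), 61.7% (PP) and 69.8% (hILO), and with p below 1e-10 in every list 71.4%, 58.2% and 77.7%. The values over all peaks as deposited, with moved counts, without peaks that cross an intron and over matched peaks with 50 input reads were chosen after the data were seen. The cause of these changes was not tested.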
